A study of Mus musculus with 91 samples.

Results

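Interferon-stimulated genes were followed across the frontal cortex and hippocampus of a mouse model of amyloid deposition treated with an antisense oligonucleotide (ASO) against Cd33. The set is a list of 41 genes known to be induced by type I interferon, matched to array probes by gene symbol and read at the probe with the highest mean signal of each gene. Of the 41 genes, 34 had an annotated probe among the 12115 annotated genes of the array. 7 genes had none under their symbol (Oas1a, Ifit1, Xaf1, Ifi44, Ifih1, Parp9 and Dtx3l) and 5 were annotated without passing the detection filter in either region (Isg20, Mx1, Oas3, Rtp4 and Sp100). The remaining 29 were measured in both regions. The 41 were named by symbol, with earlier results of these data known, and the step from 34 to 29 and the choice of probe used the measured signal.

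The mice were APP/PS1 animals, which carry mutant human amyloid precursor protein and presenilin 1 transgenes driven by the neuronal Thy1 promoter, and their wild-type (WT) littermates. WT PBS mice (n = 12 in each region) and APP/PS1 PBS mice (n = 9 in each region) received vehicle. APP/PS1 mice given a non-targeting control oligonucleotide (CON ASO, n = 13 in each region) or the CD33 ASO (n = 11 in frontal cortex, n = 12 in hippocampus) received 50 µg per day. Every mouse, WT included, had surgery at 18 weeks of age in which a cannula was placed in the right lateral ventricle and joined to a pump delivering 6 µL per day for 14 days, and was killed at 22 weeks. RNA came from the whole hippocampus and from the frontal cortex of the left hemisphere, on the side away from the cannula. No untreated mouse without surgery was analysed here, so the effect of the infusion itself is shared by all 4 groups. The 91 arrays came from 47 mice, 44 of which had an array of each region. The labels assign 13, 13, 9 and 12 mice to CD33 ASO, CON ASO, APP/PS1 PBS and WT PBS, whereas the protocol text states 14, 13, 8 and 11.

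Type I interferons are secreted when a cell's sensors meet foreign or misplaced nucleic acid. They bind the receptor IFNAR1/IFNAR2, whose kinases JAK1 and TYK2 phosphorylate STAT2, which joins IRF9 in a complex that binds the interferon-stimulated response element (ISRE) in the promoters of target genes. The induced proteins block virus entry, degrade or hide RNA, stop translation and feed back on the pathway itself. In the brain, microglia with a raised interferon signature are known from ageing and from amyloid models.

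Promoter sequence was a feature the gene list did not use. In the RefSeq promoter table (build GRCm38.p6), 30 of the 41 genes were found, each with the 250 bases before its start and the 50 bases after it. The core of the ISRE, searched as GAAANNGAAA on both strands, occurred in 15 of the 30 (50.0%), against 1079 of 27025 genes of the table (3.99%). The gamma-activated element, searched as TTCNNNGAA on both strands, occurred in 8 of 30 (26.7%) against 9.55% of all genes, and a match to it overlapped an ISRE core match in Bst2 and Ifitm3. In 12 of the 15 genes an ISRE core match lay wholly before the start. The promoters of Isg15, Ifit3, Bst2, Gbp3 and Rsad2 are printed as 250 bases before the start, 5′ to 3′ on the gene's strand, with ISRE core matches in capitals, because they show the arrangements found. Isg15 (chr4:156200819-156201068, minus strand) held 3 matches whose first bases were 6 bases apart, at -78, -72 and -66 from the start. Bst2 (chr8:71537473-71537722, minus strand) and Gbp3 (chr3:142559794-142560043, plus strand) each held 2 matches at that spacing, whereas Ifit3 (chr19:34583279-34583528, plus strand) held 2 that were farther apart, at -156 and -122, and Rsad2 (chr12:26456453-26456702, minus strand) held 1.
Isg15: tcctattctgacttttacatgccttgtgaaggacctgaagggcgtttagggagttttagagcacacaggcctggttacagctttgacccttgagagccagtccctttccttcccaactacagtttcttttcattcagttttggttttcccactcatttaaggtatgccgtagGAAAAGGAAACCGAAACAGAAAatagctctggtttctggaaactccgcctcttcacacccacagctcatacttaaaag
Ifit3: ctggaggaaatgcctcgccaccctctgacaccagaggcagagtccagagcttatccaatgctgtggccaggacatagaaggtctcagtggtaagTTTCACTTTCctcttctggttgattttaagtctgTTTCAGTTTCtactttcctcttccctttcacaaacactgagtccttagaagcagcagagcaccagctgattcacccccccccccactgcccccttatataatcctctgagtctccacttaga
Bst2: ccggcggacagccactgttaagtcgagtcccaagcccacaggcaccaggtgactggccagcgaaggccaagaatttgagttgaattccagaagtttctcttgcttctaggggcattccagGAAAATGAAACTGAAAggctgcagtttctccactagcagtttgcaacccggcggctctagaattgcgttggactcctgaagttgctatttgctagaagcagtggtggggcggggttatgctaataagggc
Gbp3: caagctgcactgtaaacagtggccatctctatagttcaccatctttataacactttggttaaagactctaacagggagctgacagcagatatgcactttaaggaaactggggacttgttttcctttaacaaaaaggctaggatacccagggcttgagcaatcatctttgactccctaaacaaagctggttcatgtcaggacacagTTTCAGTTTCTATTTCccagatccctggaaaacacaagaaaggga
Rsad2: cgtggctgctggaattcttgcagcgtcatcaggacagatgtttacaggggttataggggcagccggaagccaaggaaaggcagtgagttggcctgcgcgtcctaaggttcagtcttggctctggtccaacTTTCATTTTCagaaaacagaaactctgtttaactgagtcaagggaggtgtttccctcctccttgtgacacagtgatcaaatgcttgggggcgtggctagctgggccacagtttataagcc
The spacing of 6 bases between matches occurred in 4 of the 15 genes (Bst2, Gbp3, Isg15 and Oas1a). Lgals3bp, Oasl2, Irf7 and Irf9 had no match, which says only that these letters were not in the window. Among the measured genes in the table, 10 of the 16 that rose with genotype in the cortex held an ISRE core match (62.5%), against 1 of the 5 that did not pass the test. That 1 was Gbp2, which passed, as did Irf1 and Oasl1 of the 5, without the cortical array labelled CD33 ASO replicate 11. The 16 include Trim30a and Irf7, which passed the detection filter through transgenic arrays. A link between match and rise was not tested. A match is a description of the sequence and not a measured binding site.

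**Figure D1:**
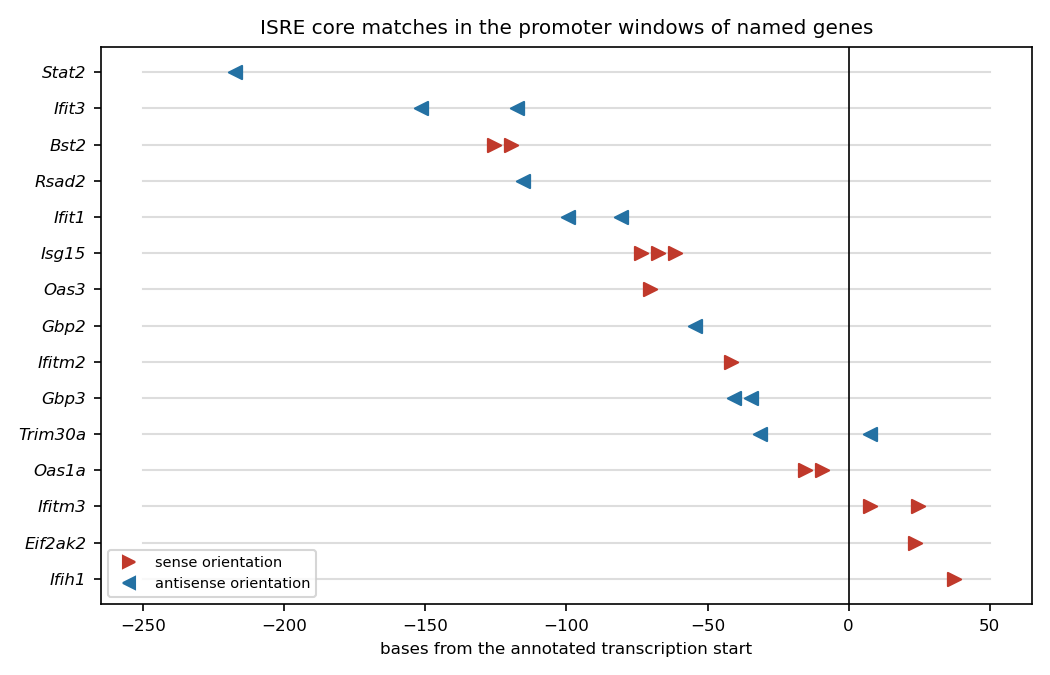
Positions of ISRE core matches in the promoters of the 15 genes that held one, with 1 row per gene and distance from the gene's start in bases on the x axis. Of the 30 genes in the promoter table, 15 held an ISRE core match, and in 12 of these a match lay wholly before the start.

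Values are log2 signal after background correction and quantile normalization within a region, and each comparison was tested with limma over 14346 probes in the cortex and 14449 in the hippocampus, with Benjamini-Hochberg adjustment over all of them and a threshold of 0.05. Each array detected 12555 to 13905 probes. The number of arrays limits the precision, and in bulk tissue more cells of a type and more RNA per cell cannot be told apart. The summed signal of 5 hippocampal markers was 7103 to 11238 on hippocampal arrays and 2918 to 4710 on cortical ones, so the regions matched their labels. The targeted gene Cd33 was lower in CD33 ASO than in CON ASO mice by a log2 difference of -0.72 ± 0.143 (SE; adjusted p = 0.0147) in the cortex and -0.92 ± 0.105 (adjusted p = 1.94e-07) in the hippocampus. Avil, an actin-binding protein gene used here only to check labels, was detected on 11 of 11 and 10 of 12 CD33 ASO arrays. It was detected on 0 of 13 CON ASO arrays in either region, so it was at least 1.93-fold and 2.05-fold higher (limma adjusted p = 3.03e-13 and 2.27e-06). Avil was chosen with earlier results of these data known. It passed the detection filter only through CD33 ASO arrays, so it had to differ and its p-values are no support for the labels.

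Some mice stood apart from the rest of their group. The mouse labelled CD33 ASO replicate 3 resembled WT in both regions by Cst7 and Thy1. Its Cst7, a plaque-associated microglial gene, read 5.325 in the cortex against 9.485 to 10.66 on the other CD33 ASO arrays, and its Thy1 read 14.103 against 14.77 to 14.93. Its Avil was raised like that of the group in the hippocampus (6.826). In the hippocampus its Cst7 read 5.375 against 8.033 to 9.294, and its Thy1 14.016 against 14.74 to 14.92. For the 29 genes, the median of its log2 signal minus the WT PBS median was 0.0793 in the cortex. WT arrays there ranged from -0.26 to 0.19, and the next lowest CD33 ASO array read 0.668. In the hippocampus this median was 0.14, within the range of WT PBS (-0.34 to 0.445) and also of APP/PS1 PBS (0.104 to 0.781), so it does not set the mouse apart there. The cortical array labelled CD33 ASO replicate 11 came from a mouse without a hippocampal array. The same median over the 29 genes was 3.26 on it, against at most 1.42 on any other cortical array. Its rank over all probes was not tested. In the hippocampus, CD33 ASO replicates 7 and 10, both from mice without a cortical array, had the highest Cd33 of their group (6.385 and 6.211) and Avil at 4.535 and 4.83, not detected, against 5.942 to 7.274 on the other 10 arrays. The hippocampal array labelled APP/PS1 PBS replicate 6 was the highest of its group for several genes. Results are given with and without these arrays where they moved.

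**Figure D2:**
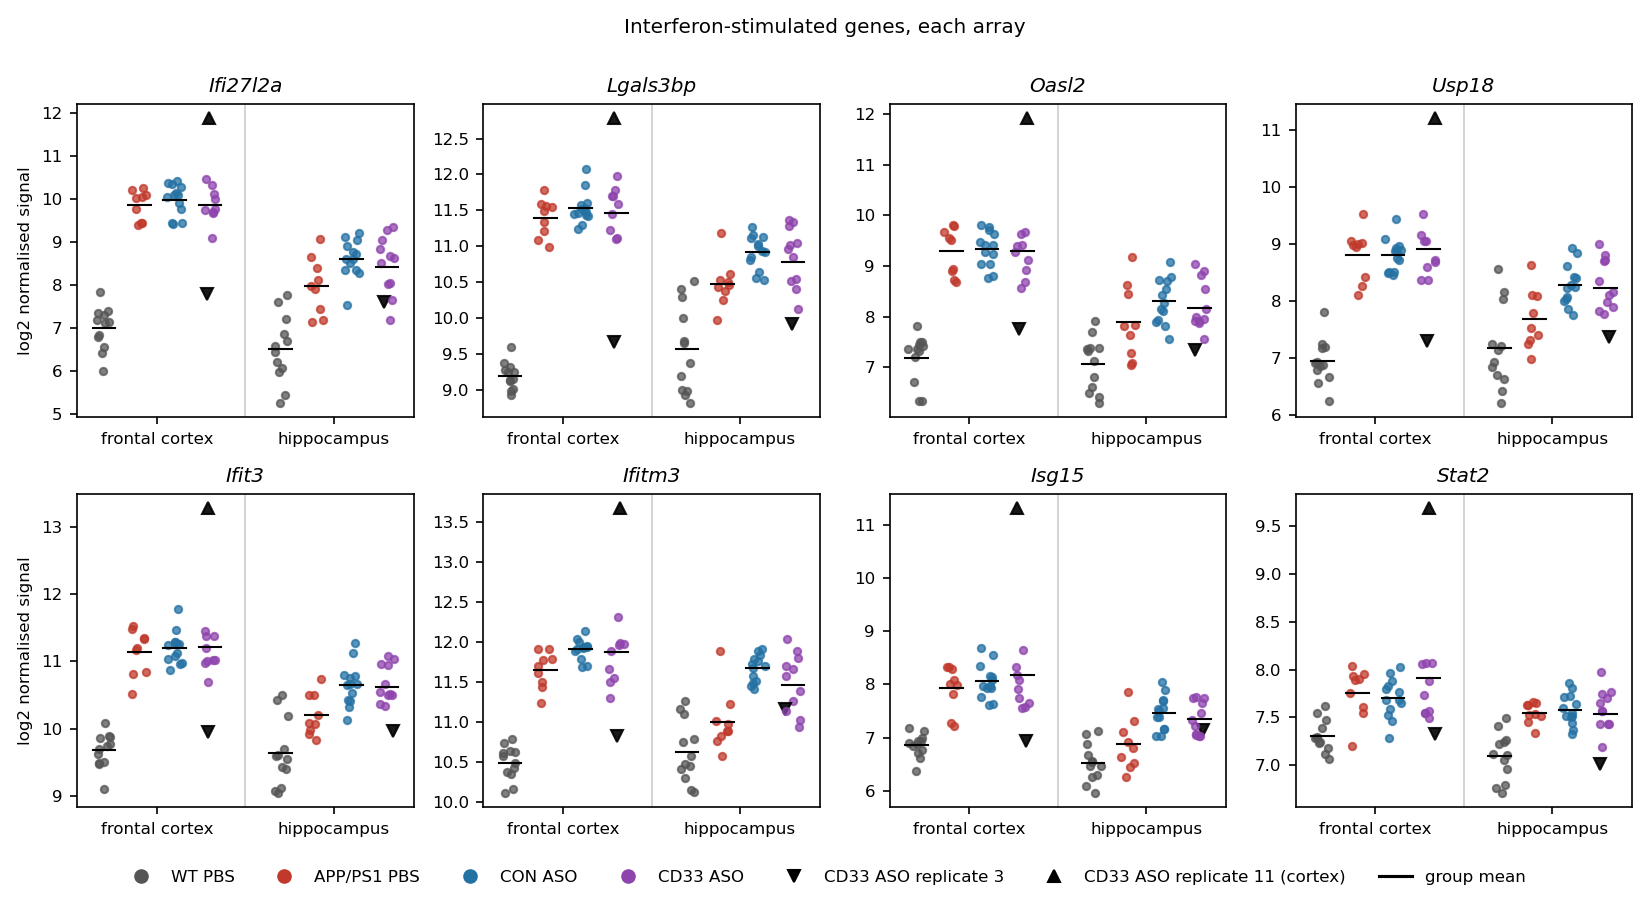
Ifi27l2a, Lgals3bp, Oasl2, Usp18, Ifit3, Ifitm3, Isg15 and Stat2 on every array of the frontal cortex and hippocampus, with 1 panel per gene. Each point is 1 array, placed by region and group, and lines mark group means. The y axis is log2 normalized signal. The median over all 29 genes of log2 signal minus the WT PBS median is not drawn. On cortical arrays it was -0.26 to 0.19 in WT PBS, 0.496 to 1.32 in APP/PS1 PBS and 0.0793 to 3.26 in CD33 ASO.

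In the frontal cortex, interferon-stimulated genes were higher in APP/PS1 PBS than in WT PBS mice. Of the 29 measured, 23 rose and 0 fell, where 8.53% of all probes rose and 10.7% fell. The median log2 difference over the 29 was 0.99, against -0.03 over all probes. In 18 of the 29 (all higher) the 9 APP/PS1 PBS arrays and the 12 WT arrays did not overlap, where 2.53% of all probes were higher without overlap and 0.237% lower. Trim30a, Irf7 and Oas2 were not detected on any of the 12 WT arrays of the cortex, so they passed the detection filter through transgenic arrays and had to differ. Over the 22 genes detected on at least 9 WT arrays, which leaves out these 3 and Oasl1, Bst2, Mx2 and Trim25, 18 rose, where 8.22% of such probes rose.

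The largest change was in Ifi27l2a, which encodes a small interferon-induced membrane protein. It ranged from 6.005 to 7.853 in WT PBS (median 7.129) and from 9.406 to 10.26 in APP/PS1 PBS (median 10.03). The lowest transgenic array was thus above the highest WT array, and the difference was 2.86 ± 0.262 on the log2 scale, or 7.26-fold (SE; limma adjusted p = 1.02e-11). Ifitm3, which hinders the fusion of viruses with endosomal membranes, ranged from 10.11 to 10.78 (median 10.53) in WT and from 11.23 to 11.92 (median 11.71) in APP/PS1 PBS, again without overlap, with a difference of 1.17 ± 0.17 (adjusted p = 1.19e-06). Of the other membrane proteins, Bst2 (tetherin, which holds budding virus at the cell surface), Ly6e and Ifitm2 also rose, by 0.99, 0.42 and 0.38.

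Among genes of the 2′-5′ oligoadenylate synthetase family, which sense double-stranded RNA or are related to those that do, Oasl2 rose 4.30-fold. Its WT arrays ranged from 6.32 to 7.821 (median 7.352) and its APP/PS1 PBS arrays from 8.678 to 9.811 (median 9.515), with no overlap and a difference of 2.10 ± 0.274 (adjusted p = 9.92e-08). Oas2 was at least 1.36-fold higher (adjusted p = 0.0015), where WT was taken at the lowest signal that counts as detected. Oasl1 did not pass the test (0.32, adjusted p = 0.198).

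Ifit3, of a family that binds viral RNA ends, ranged from 9.112 to 10.08 (median 9.719) in WT and from 10.52 to 11.53 (median 11.2) in APP/PS1 PBS. The groups did not overlap and differed by 1.46 ± 0.199, or 2.75-fold (adjusted p = 3.08e-07). Both other detected Ifit3 probes rose as well (1.28 and 1.34). Mouse Ifit3 has a near-identical neighbour, Ifit3b, whose share in the probe signal was not tested. Ifit2 rose by 0.61 with overlapping groups.

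In the ISG15 system, which attaches a ubiquitin-like protein to targets, the conjugate Isg15 and the protease Usp18, which removes it and dampens the receptor, both rose. Usp18 ranged from 6.249 to 7.812 (median 6.896) in WT and from 8.102 to 9.513 (median 8.981) in APP/PS1 PBS, a difference of 1.87 ± 0.247, or 3.65-fold (adjusted p = 1.45e-07). Isg15 ranged from 6.379 to 7.174 (median 6.893) and from 7.211 to 8.326 (median 8.006), a difference of 1.07 ± 0.271 (adjusted p = 0.00392). Neither gene overlapped between the groups. Trim25, a ligase of the same system, read 0.05 (adjusted p = 0.823) and was detected on 3 of 12 WT and 5 of 9 APP/PS1 PBS arrays.

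Lgals3bp, a secreted glycoprotein that binds galectin-3, was 4.60-fold higher. It ranged from 8.921 to 9.598 (median 9.198) in WT and from 10.99 to 11.78 (median 11.49) in APP/PS1 PBS, a difference of 2.20 ± 0.182 (adjusted p = 6.64e-13), the smallest p of the 29. Rsad2 (viperin, which makes a chain-terminating nucleotide) ranged from 6.254 to 7.312 (median 6.746) and from 7.429 to 8.545 (median 7.987) and rose by 1.23 ± 0.224 (adjusted p = 7.12e-05). Eif2ak2, the kinase PKR that halts translation on double-stranded RNA, ranged from 7.276 to 7.893 (median 7.563) and from 8.276 to 8.982 (median 8.721) and rose by 1.07 ± 0.156 (adjusted p = 9.69e-07). All 3 were without overlap between the groups.

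Trim30a, a tripartite-motif protein known to dampen NF-kappaB signalling, ranged from 4.879 to 5.371 (median 5.081) in WT, where no array detected it, and from 6.015 to 7.081 (median 6.574) in APP/PS1 PBS, at least 1.9-fold higher (adjusted p = 2.32e-06). Parp14, an ADP-ribosyltransferase, ranged from 6.181 to 7.306 (median 6.746) and from 7.242 to 8.629 (median 8.154), overlapping slightly, and rose by 1.36 ± 0.241 (adjusted p = 4.15e-05). Irf7, the factor that drives interferon-alpha genes, ranged from 4.744 to 5.299 (median 4.968) and from 5.471 to 6.807 (median 6.029) and was at least 1.42-fold higher (adjusted p = 0.0045). Irf9 and Stat2, partners in the factor that binds the ISRE, rose by 0.94 and 0.45. Of the 23 genes, the 11 not given with ranges here rose by 0.38 to 1.06.

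The 6 genes that did not pass the test in the cortex were Gbp2, Irf1, Oasl1, Cmpk2, Trim25 and Zbp1. Gbp2, a GTPase induced strongly by interferon-gamma, differed by 0.82 ± 0.351 (adjusted p = 0.098) and Irf1 by 0.38 ± 0.225 (adjusted p = 0.244). With the cortical array labelled CD33 ASO replicate 11 left out of the shared estimate of spread, Gbp2, Irf1 and Oasl1 passed (adjusted p = 0.000879, 0.00132 and 0.0494) and the count was 26 of 29, where 9.12% of all probes rose and 10.9% fell. Zbp1, a sensor of Z-form nucleic acid, read 0.02 (adjusted p = 0.927), and Cmpk2, a nucleotide kinase neighbouring Rsad2 in the genome, 0.11 (adjusted p = 0.523). The 23 genes were higher in APP/PS1 PBS within every chip and every collection day, with within-chip differences of 0.08 to 3.72.

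**Figure D3:**
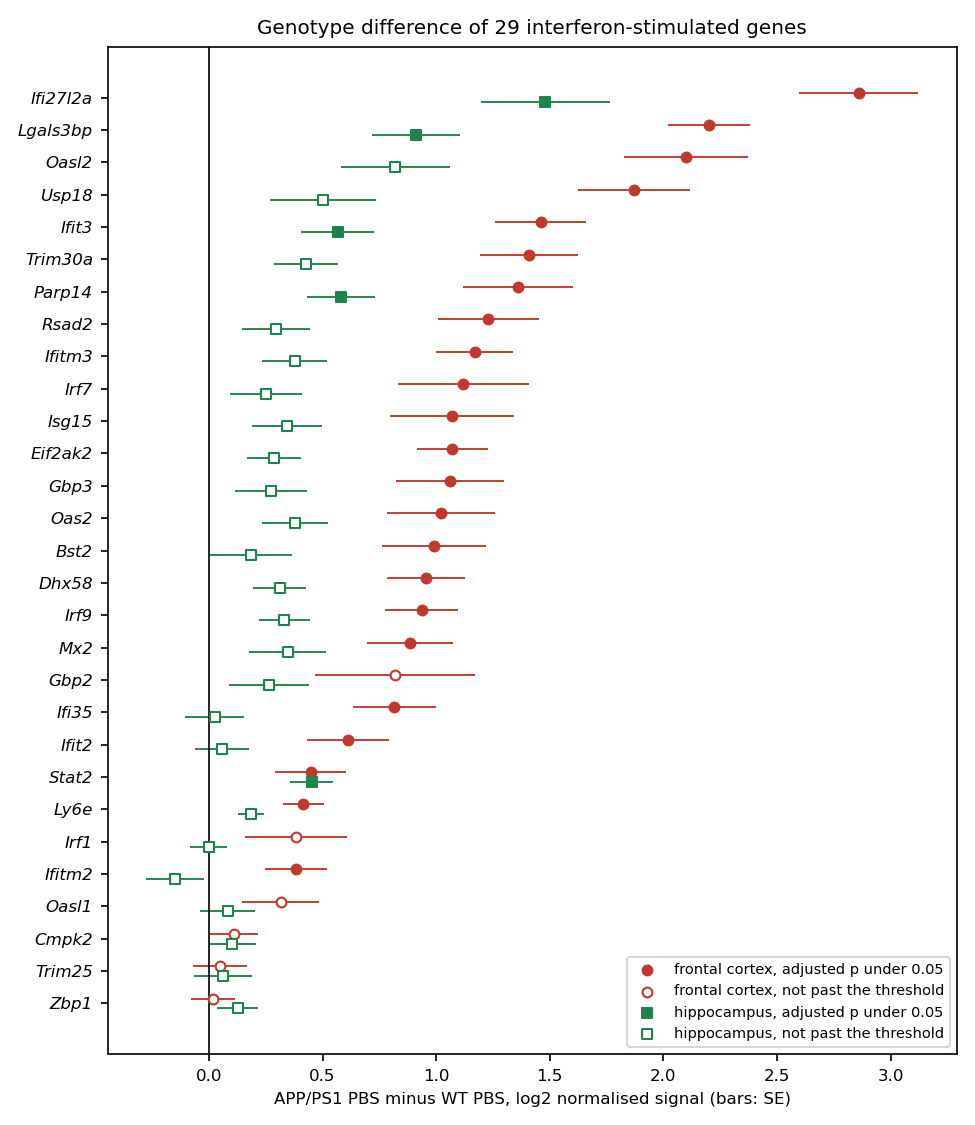
Log2 difference of APP/PS1 PBS minus WT PBS for each of the 29 genes in frontal cortex and hippocampus, with bars giving the SE. In the cortex 23 genes passed the test and Ifi27l2a reached 2.86, and in the hippocampus 5 passed and Ifi27l2a reached 1.48.

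Other genes of the interferon pathway were read from a separate list. In the cortex 29 of 63 rose and 1 fell. The receptors and kinases rose in 5 of 7 (Ifngr2, Il10rb, Ifnar2, Ifngr1 and Tyk2), the other STATs and IRFs in 3 of 5, the inhibitors in 1 of 7, the sensors and adaptors in 4 of 12 and further induced genes in 16 of 29. The 6 with the smallest p were Irf5 (1.42), Tlr7 (1.61), Ptpn6 (1.79), B2m (1.08), Unc93b1 (1.15) and Irf8 (1.54), all without overlap between the groups. Irf5 and Irf8 are transcription factors of myeloid cells, Tlr7 with its chaperone Unc93b1 senses single-stranded RNA in endosomes, Ptpn6 is a phosphatase of haematopoietic cells, and B2m is the light chain of MHC class I. Of the interferons themselves, Ifna1, Ifne and Ifnz were measured and 0 of 3 passed in limma, with 0 past an unadjusted p of 0.05 and Ifna1 detected on 3 of 9 APP/PS1 PBS and 2 of 12 WT arrays.

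Microglial markers moved with these genes. In the cortex 9 of 9 measured microglial markers rose, and their summed signal was 5170 to 6414 in WT PBS and 13621 to 19818 in APP/PS1 PBS, with Itgam not detected. All 10 measured plaque-associated microglial markers and 5 of 7 astrocyte markers also rose. T and NK cell markers summed to 50 to 98 across all cortical arrays, with Cd3d, Cd3g, Nkg7, Gzma and Cd2 not detected. The part of microglial number in the interferon-stimulated genes was not tested.

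In the hippocampus, 5 of the 29 genes were higher in APP/PS1 PBS than in WT PBS and 0 were lower, where 1.82% of all probes rose and 0.671% fell. The median log2 difference was 0.29, against -0.000514 over all probes, and no gene was free of overlap, where 0.741% of all probes were higher without overlap and 0% lower. Ifi27l2a ranged from 5.254 to 7.768 (median 6.524) in WT and from 7.138 to 9.069 (median 7.989) in APP/PS1 PBS, a difference of 1.48 ± 0.284, or 2.78-fold (adjusted p = 0.000535). On 6 of 9 transgenic arrays it was above the highest WT array. Lgals3bp ranged from 8.813 to 10.52 (median 9.515) and from 9.966 to 11.19 (median 10.46), a difference of 0.91 ± 0.192 (adjusted p = 0.00206). Stat2 ranged from 6.708 to 7.495 (median 7.115) and from 7.334 to 7.663 (median 7.537), a difference of 0.45 ± 0.0933 (adjusted p = 0.00127), close to its difference in the cortex.

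Parp14 ranged from 6.449 to 7.594 (median 7.044) in WT and from 7.306 to 8.525 (median 7.446) in APP/PS1 PBS, a difference of 0.58 ± 0.15 (adjusted p = 0.0196). Ifit3 ranged from 9.046 to 10.5 (median 9.572) and from 9.835 to 10.74 (median 10.08), a difference of 0.57 ± 0.162 (adjusted p = 0.0443). Both overlapped between the groups, and neither passed without the array labelled APP/PS1 PBS replicate 6, which left 3 genes (1.42% of all probes then rose and 0.235% fell). Ifit3 was also lower in APP/PS1 PBS on 1 of the 6 chips (-0.27). At an unadjusted p under 0.05, 16 of 29 genes were past the threshold (55.2%), against 16.6% of all probes. Oasl2 had a larger difference (0.82, adjusted p = 0.0533) than 3 of the genes that passed.

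Other pathway genes rose in 12 of 61 and fell in 1 of 61 in the hippocampus. Ptpn6 (1.11), Irf8 (0.92), Unc93b1 (0.62), Irf5 (0.71) and Phf11d (0.76) were higher, and Psme2, an activator subunit of the proteasome, was lower (-0.63) there and in the cortex (-0.40). Microglial markers rose in 7 of 9, with a summed signal of 4176 to 5714 in WT PBS and 8942 to 14729 in APP/PS1 PBS, and their part in the result was not tested.

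The genotype difference was smaller in the hippocampus than in the cortex. The difference of differences, fitted over all 91 arrays, normalized together, with the mouse as a random block, was lower for 12 of 29 genes and higher for 0, where 2.35% of 14884 probes were lower and 1.03% higher. Its median was -0.74 against 0.02 over all probes. Lgals3bp differed by -1.33 ± 0.236 (adjusted p = 0.000167), Usp18 by -1.40 ± 0.305 (adjusted p = 0.00255) and Ifi27l2a by -1.44 ± 0.349 (adjusted p = 0.00779). Oasl2, Trim30a, Ifit3, Ifitm3, Rsad2, Eif2ak2, Ifi35, Irf9 and Dhx58 were the other 9, from -1.33 to -0.63. Trim30a was detected on 0 of 12 WT arrays in either region and on 3 of 9 APP/PS1 PBS arrays of the hippocampus, so the size of its difference is not measured. Stat2 differed by -0.01 ± 0.166 (adjusted p = 0.984). Without the cortical array labelled CD33 ASO replicate 11, 21 of the 29 were lower (72.4%), against 2.77% of all probes. Microglial markers moved with this difference. In the same fit 5 of 9 microglial markers, 8 of 10 plaque-associated microglial markers and 4 of 7 astrocyte markers were lower and none higher. Their medians were -0.62, -0.61 and -0.20. All 5 choroid plexus markers had a negative difference too, with a median of -0.921, although 0 passed in limma. Summed choroid plexus signal in the hippocampus was 2366 to 36877 (median 27012) in WT PBS and 2186 to 30817 (median 6793) in APP/PS1 PBS. The part of any of these markers in the result was not tested.

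Levels in WT PBS mice were also compared between the regions in that joint fit. There, 9 genes were higher in the hippocampus and 1 was lower, where 29.3% of all probes were higher and 26.2% lower, so the share of the 29 that differed was below that of all probes. Cmpk2 was lower by a log2 difference of -0.79 ± 0.0894 (adjusted p = 1.45e-12), and its ranges over the jointly normalized arrays were 8.932 to 9.512 in the cortex and 8.062 to 8.595 in the hippocampus, without overlap. Lgals3bp was higher by 0.51 ± 0.154 (adjusted p = 0.00346), Ifi35 by 0.49 ± 0.135 and Ly6e by 0.36 ± 0.0643. These counts depended on the normalization. With each region normalized on its own, the median over all probes moved from 0.02 to -0.14, 13% of all probes were higher and 47.7% lower, and only Lgals3bp and Ly6e were higher while Cmpk2, Ifit2 and Trim25 were lower.

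The control oligonucleotide was compared with vehicle in APP/PS1 mice. In the hippocampus 6 of the 29 genes were higher in CON ASO and 0 were lower, where 0.824% of all probes were higher and 0.471% lower. The median difference was 0.42 against -0.01 over all probes, 28 of 29 genes had a positive difference, and 20 of 29 (69%) were past an unadjusted p of 0.05, against 13.3% of all probes. Oas2 and Irf7, among the 6, passed the detection filter only through arrays of mice given an oligonucleotide, where they are high. Over the 24 genes detected on at least 9 PBS arrays, which also leaves out Oasl1, Trim25 and Trim30a, 4 were higher, where 0.779% of such probes were higher, and 18 (75%) were past an unadjusted p of 0.05, against 13.7%. Oas2 was detected on 3 of 9 APP/PS1 PBS arrays, at 5.011 to 6.111 (median 5.234), and on 13 of 13 CON ASO arrays, at 5.476 to 6.473 (median 6.093), a difference of 0.77 ± 0.142 (adjusted p = 0.00117). Ifitm3 ranged from 10.57 to 11.89 (median 10.89) in vehicle and from 11.41 to 11.91 (median 11.7) in CON ASO, a difference of 0.67 ± 0.14 (adjusted p = 0.00581). A single vehicle array, APP/PS1 PBS replicate 6, was above all but 1 of the CON ASO arrays for Ifitm3.

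Rsad2 ranged from 6.476 to 7.369 (median 6.925) in vehicle and from 7.034 to 8.051 (median 7.565) in CON ASO, with 11 of 13 CON ASO arrays above the highest vehicle array and a difference of 0.65 ± 0.147 (adjusted p = 0.0107). Isg15 ranged from 6.265 to 7.86 (median 6.813) and from 7.027 to 8.048 (median 7.505), a difference of 0.60 ± 0.153 (adjusted p = 0.0322). All 6 genes overlapped between the groups, where 0% of all probes were higher without overlap and 0.0208% lower. Irf7 was detected on 4 of 9 vehicle and 12 of 13 CON ASO arrays. It ranged from 5.035 to 5.905 (median 5.256) and from 5.289 to 6.348 (median 6.017), a difference of 0.59 ± 0.155 (adjusted p = 0.0363), and was lower in CON ASO on 1 of 4 collection days (-0.10). Ifitm2 ranged from 8.755 to 9.878 (median 9.35) and from 9.308 to 10.18 (median 9.915), a difference of 0.56 ± 0.126 (adjusted p = 0.0106). Largest in their role groups among genes that did not pass were Ifi27l2a at 0.63 (adjusted p = 0.292) and Usp18 at 0.61 (adjusted p = 0.197).

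These counts turned on a single vehicle array. Without APP/PS1 PBS replicate 6, 12 of 29 genes were higher in CON ASO, adding Ifit2, Irf1, Irf9, Gbp2, Parp14 and Ifi35 to the 6 above, while 1.12% of all probes were higher and 0.519% lower. Among other pathway genes only Myd88, the adaptor of most Toll-like receptors, rose (1 of 61, by 0.30, adjusted p = 0.0249). Microglial markers passed in 0 of 9 in limma and 4 of 9 were past an unadjusted p of 0.05, with summed signals of 8942 to 14729 in vehicle and 9818 to 14556 in CON ASO, and their part in the result was not tested.

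Border macrophages live in the meninges, the choroid plexus and around vessels, and 3 of their 4 measured markers rose in the hippocampus with CON ASO. Ms4a7 ranged from 4.863 to 6.968 (median 5.568) in vehicle and from 6.1 to 7.89 (median 7.196) in CON ASO, a difference of 1.52 ± 0.184 (adjusted p = 3.55e-07), and Cbr2 and Folr2 were higher by 0.89 and 0.58, although Folr2 was detected on 1 of 9 vehicle arrays. The summed border macrophage signal was 99 to 372 in vehicle and 290 to 605 in CON ASO, with Cd163 and Pf4 not detected. Summed choroid plexus signal also differed, with hippocampal medians of 6793 in vehicle, 20768 in CON ASO and 18145 in CD33 ASO. Its ranges overlapped widely (2186 to 30817, 6732 to 35086 and 3955 to 36018). The part of either sum in the interferon-stimulated genes was not tested.

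In the cortex, 0 of 29 genes passed between CON ASO and vehicle in limma, where 1.15% of all probes were higher and 1.48% lower, and 1 of 29 (Ifitm2, 0.35 ± 0.135) was past an unadjusted p of 0.05, against 15.1% of all probes. The median difference was 0.07. Without the array labelled CD33 ASO replicate 11, Ifitm2 passed (adjusted p = 0.00945), where 1.43% of all probes were higher and 1.73% lower. Ms4a7 and Cbr2 rose in the cortex too, by 1.14 and 0.50. The difference between the regions in this comparison passed for 0 of 29 genes in limma, where 0.0672% of all probes passed. It was past an unadjusted p of 0.05 for 4 of 29 (Bst2, Ifitm3, Cmpk2 and Usp18), against 1586 of 14884 probes. A stronger effect in the hippocampus was thus not shown.

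**Figure D4:**
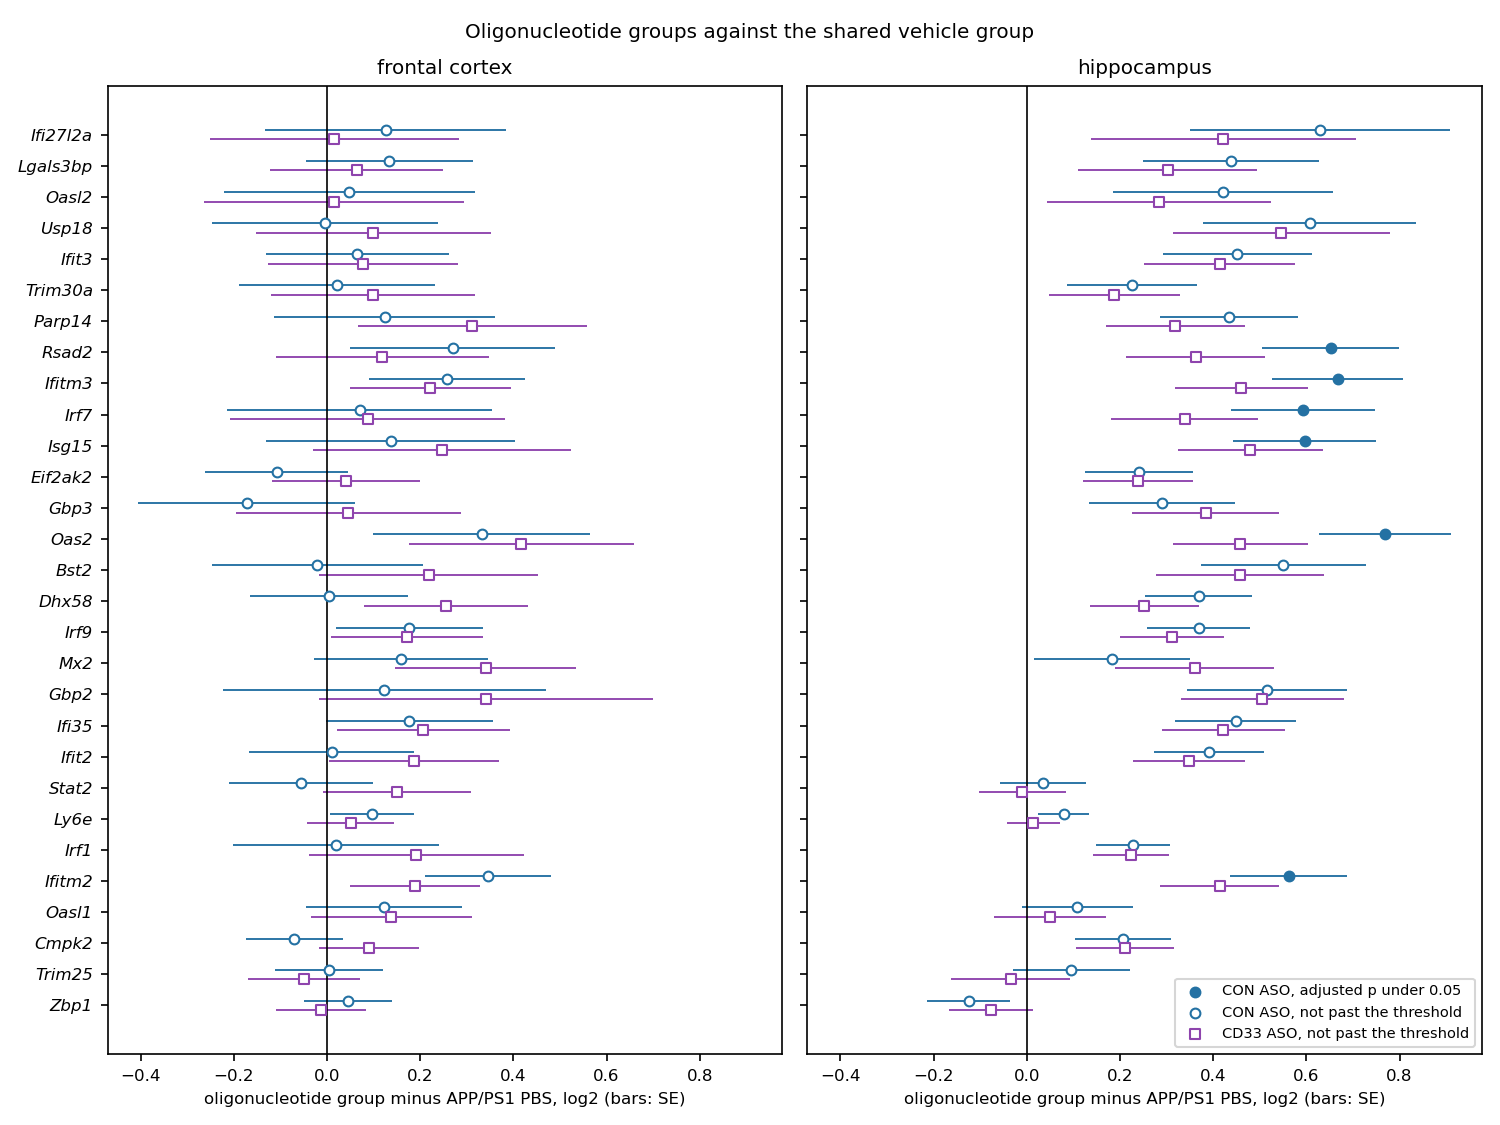
Log2 differences of CON ASO minus APP/PS1 PBS and CD33 ASO minus APP/PS1 PBS for the 29 genes in each region, with bars giving the SE. In the hippocampus 28 of 29 CON ASO differences and 26 of 29 CD33 ASO differences were above 0, and 6 of the former and 0 of the latter passed the test.

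The CD33 ASO was compared with vehicle and with CON ASO, comparisons that share arrays with the one above. In the hippocampus 0 of 29 genes passed against vehicle in limma (0.505% of all probes passed), with a median difference of 0.34 and 20 of 29 genes (69%) past an unadjusted p of 0.05, against 12.5% of all probes. Ifitm3 ranged from 10.93 to 12.04 (median 11.48) in CD33 ASO and differed from vehicle by 0.46 ± 0.143 (adjusted p = 0.139). Isg15 ranged from 7.029 to 7.764 (median 7.275) and differed by 0.48 ± 0.155 (adjusted p = 0.158). Without the vehicle array APP/PS1 PBS replicate 6, 5 genes passed (Oas2, Ifitm3, Ifitm2, Isg15 and Gbp2), where 0.671% of all probes passed. Without the arrays labelled CD33 ASO replicates 7 and 10, 2 passed (Ifitm3 and Ifitm2), while the share of all probes that passed rose to 1.75%.

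Against CON ASO in the hippocampus, 0 of 29 genes passed in limma (0.118% of all probes passed), and 2 were past an unadjusted p of 0.05 (6.9%, against 4.28% of all probes). Those were Oas2, at -0.31 with a 95% interval of -0.57 to -0.05, and Rsad2, at -0.29. The median difference was -0.06. Over the 29 genes the intervals reached from -0.71 (Ifi27l2a) to 0.48 (Mx2), so differences of that size are not excluded. Of the border macrophage markers, Ms4a7 and Cbr2 were lower in CD33 ASO than in CON ASO, by log2 differences of -1.02 and -0.66.

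In the cortex, 0 of 29 genes passed against vehicle (1.36% of all probes passed) or against CON ASO (0.153%) in limma, and 0 were past an unadjusted p of 0.05 in either, against 12.3% and 9.79% of all probes. The median differences were 0.14 and 0.08, with intervals from -0.53 (Oasl2) to 1.04 (Gbp2) against vehicle and from -0.59 (Ifi27l2a) to 0.86 (Gbp2) against CON ASO. Both arrays that stood apart lie in this group. Without replicates 3 and 11 the medians were 0.02 and -0.08 and again 0 genes passed, with 0 and 3 past an unadjusted p of 0.05. Without replicate 11 alone they were -0.05 and -0.15, and without replicate 3 alone 0.25 and 0.17. The difference between CD33 ASO and CON ASO did not pass between the regions for any of the 29 genes in limma, where 0% of all probes passed. At an unadjusted p under 0.05, 0 of the 29 were past the threshold, against 1365 of 14884 probes.

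The array labelled CD33 ASO replicate 11 carried most of these genes at levels not seen on any other cortical array, and all probes were not compared in this way. Its Gbp2 read 13.54, against 8.674 to 9.498 on the 9 CD33 ASO arrays other than replicates 3 and 11, and 4.71 above the median of the other 10. Its Irf1 read 12.34 against 9.013 to 9.47, its Isg15 11.31 against 7.552 to 8.636, and its Irf7 9.599 against 5.34 to 6.595. Zbp1, at 6.964, lay within the range of the others. The median excess over the 29 genes was 2.13. The chemokine Cxcl10 read 11.18 against 5.015 to 7.574 on the other CD33 ASO arrays, the feedback inhibitor Socs3 8.74 against 6.374 to 7.463, and the monocyte and neutrophil genes Plac8 and S100a8 10.69 and 8.614 against 5.246 to 6.169 and 4.815 to 6.477. The summed microglial signal of this array, 30012, was the highest of the cortical arrays, and its part in the excess was not tested.

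After removal of group means, the 29 genes varied together from mouse to mouse. The median pairwise Pearson r was 0.764 over 45 cortical arrays and 0.466 over 46 hippocampal arrays, against 0.002 and -0.003 over all pairs of probes. Without replicates 3 and 11 the cortical median was 0.394, with 35.2% of pairs above 0.5 against 2.53% of all pairs. Without replicate 3 the hippocampal median was 0.439. Zbp1 and Trim25 followed the others least in the hippocampus, with median r of 0.056 and 0.0333, and Usp18 and Ifit3 were the closest pair there (r = 0.927). The arrays share chips and collection days, so these values are a description.

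The level of a gene in the cortex of a mouse was also related to its level in the hippocampus of the same mouse. Over 44 mice, with group means removed, the correlation between regions was positive for 29 of 29 genes, with a median r of 0.446 (0.0787 to 0.588), against 0.176 over all 13911 probes measured in both regions. It passed for 18 of 29 (62.1%) in a permutation test within groups, two-sided and adjusted over all probes, against 14.9% of all probes. The largest was that of Lgals3bp, with r = 0.588 (permutation p = 1e-05, the smallest that 100000 resamples can give; adjusted p = 0.000843) and Spearman rho = 0.585 (p = 5e-05). Leaving out the 2 mice farthest from the median gave r = 0.494, and leaving out the mouse labelled CD33 ASO replicate 3 gave 0.514. Within groups its r was 0.641 in WT PBS (n = 12), 0.644 in APP/PS1 PBS (n = 9), 0.171 in CON ASO (n = 13) and 0.883 in CD33 ASO (n = 10). Other genes also differed between groups. In CD33 ASO and CON ASO, r was 0.908 and 0.238 for Usp18, 0.68 and -0.403 for Ifit2, but 0.0768 and 0.476 for Ly6e. With the collection day removed as well the median over the 29 genes was 0.42, and without replicate 3 it was 0.414. Trim25 had the lowest r, 0.0787 (adjusted p = 0.788).

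The same mice shared a chip in both regions, for 6 of 6 pairs of chips, so a batch common to both arrays of a mouse can enter these correlations. With chip means removed as well as group means, the median r over the 29 genes was 0.441 and that over all probes fell to 0.091. With the mean of each group within each chip removed, the medians were 0.46 and 0.0884. In that setting r was positive for 28 of 29 genes, against 8786 of 13911 probes. Permuting mice within group and chip, 39 of the 44 mice could change places, and 0 of 29 genes passed after adjustment, against 0.0216% of all probes (3 probes). At an unadjusted p under 0.05, 12 of 29 genes (41.4%) were past the threshold in that test, against 9.66% of all probes, and Lgals3bp had r = 0.726 (permutation p = 0.0087, adjusted p = 0.343).

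**Figure D5:**
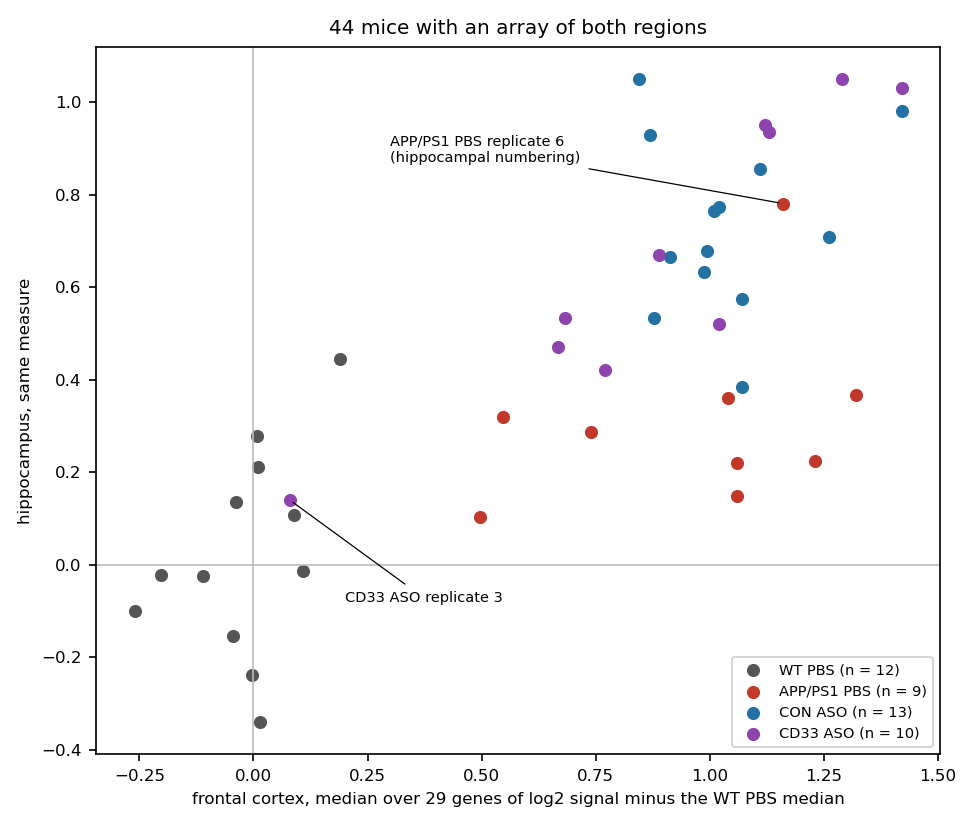
One point per mouse with an array of both regions (n = 44), with the cortex on the x axis and the hippocampus on the y axis, each as the median over 29 genes of log2 signal minus the WT PBS median. In 36 of 44 mice both medians were above 0, and the mouse labelled CD33 ASO replicate 3 lies among the WT mice.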

How the data were processed

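RNA from frontal cortex and hippocampus was measured on Illumina bead arrays. The probe intensities were deposited before normalization, per the file headers, with a detection p-value for each probe and array, and intensities below 0 show that background had been subtracted. A deposited table of log2 values, normalized by the authors, served as an alternative. BeadStudio, GenomeStudio and Partek are named in the submitters' processing notes; their settings, versions and a genome build are not given in the sources used here. Probes were named from the platform annotation (16814 with 1 symbol, 8883 with none).

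Intensities were background-corrected, quantile-normalized and log2-transformed with an offset of 16 (neqc, limma 3.58.1, R 4.3.3), separately by region; for comparisons between regions the 91 arrays were normalized together. Probes with a detection p under 0.05 on at least 9 arrays were kept, a filter that used all groups. Means of 4 groups were fitted with a trended robust empirical Bayes step, and p-values were adjusted by Benjamini-Hochberg over all kept probes. Regions were compared in a joint fit of 91 arrays in which arrays of 1 mouse were a random block with an estimated correlation of 0.169. "At least" folds set a group in which no array detected the probe at the lowest detected signal of each array. Summed marker signals are linear, without the offset. Intervals are estimates ± 1.96 SE. Correlations between regions and permutations used Python 3.11.15 with numpy 2.4.6.

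The genes, lists and tests were chosen with earlier results of these data known. Named were, in each comparison, up to 12 genes past the threshold by size with at most 4 of 1 role group first, genes not past it where they led their role group or were named elsewhere, and up to 6 other pathway genes by smallest p. Cxcl10, Socs3, Plac8, S100a8 and the genes of replicate 11 were named after their values were seen. Samples were grouped by genotype and treatment in their labels, and replicate numbers name different mice in each group, so they pair nothing across groups. Alternatives were another background correction and normalization, the authors' values, other detection filters, the mean of all probes, a fit of only the groups compared, only mice with both regions, blocks for chip, collection day or replicate number, and each array left out in turn. Settings without CD33 ASO replicates 3 and 11 together, without replicate 11 in the joint fit, and with chip means removed from the correlations between regions were chosen after seeing the data. The test was checked on simulated data for the genotype comparison. Of 100 probes changed by 0.5 on the log2 scale, 85% were recovered among 14346 cortical probes and 78% among 14449 hippocampal ones. The noise was independent and normal, and the changed probes were drawn at random from all probes. The 29 genes had a larger median SE (0.191 against 0.0861 over all probes in the cortex), so these shares do not hold for them.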

Additional observations from a re-analysis of the deposited data

Results flagged for a closer look

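In APP/PS1 PBS mice (n = 9), 58 sets of 1 gene in 1 region were examined, 29 in each region. The gap of 1 array to its nearest neighbour, over the range, exceeded Dixon's 95% critical value of 0.493 for 6 sets, all in the hippocampus. Chance flags about 1 in 20 such sets, but the genes vary together, so the sets are not independent. The array labelled replicate 6 was the highest for Gbp2 (9.575), Ifitm3 (11.89), Irf1 (9.489), Oas2 (6.111) and Parp14 (8.525). The array labelled replicate 8 was the lowest for Cmpk2 (7.921).

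The genotype difference itself differed between the regions, by the joint test, for 12 genes. The hippocampal minus the cortical difference was -1.44 for Ifi27l2a, -1.40 for Usp18, -1.33 for Lgals3bp and -1.33 for Oasl2. It was -0.95 for Rsad2, -0.93 for Trim30a, -0.92 for Ifit3, -0.81 for Eif2ak2, -0.79 for Ifitm3 and -0.79 for Ifi35. The value of Trim30a is set against WT arrays of which 0 of 12 detected it in either region. It was -0.63 for Irf9 and -0.63 for Dhx58.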

How the results depend on the processing

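No gene that passed the test of a group difference changed direction under any alternative tried. Of the cortical genotype calls, 296 of 298 values under the alternatives other than single arrays left out stayed past the threshold; Ifitm2 and Stat2 were lost with no detection filter (adjusted p = 0.0823 and 0.0679). The corresponding counts were 54 of 60 for the hippocampal genotype calls, 56 of 60 for the difference between regions, 66 of 70 for CON ASO in the hippocampus and 41 of 50 for the regions of WT mice. All 6 losses of the hippocampal genotype calls were of Ifit3 (adjusted p = 0.0511 to 0.198). Irf7 was lost for CON ASO with no background correction and with the authors' values (0.0939 and 0.108), Isg15 with the compared groups alone (0.0637), and Rsad2, Irf9, Dhx58 and Ifi35 for the difference between regions with no mouse block (0.0507, 0.0833, 0.115 and 0.0521), as were Irf1 and Parp14 in WT (0.0509 and 0.0588). The other 7 losses in WT came with each region normalized on its own (adjusted p = 0.0733 to 0.766).

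The hippocampal genotype count, 5, was 8 with the chip as a block (adding Oasl2, Ly6e and Dhx58), where 2.75% of all probes rose and 2.03% fell. The cortical CON ASO count, 0, was 1 (Ifitm2) with the compared groups alone, with mice of both regions only, and without replicates 3 and 11. Keeping only mice of both regions leaves out CD33 ASO replicate 11 in the cortex and replicates 7 and 10 in the hippocampus. It is thus not a separate check from the settings without replicate 11. The hippocampal count of CD33 ASO against vehicle, 0, was 2 with mice of both regions only, where 1.75% of all probes passed. The count for the difference between regions, 12, was 21 with mice of both regions only, 21 without the cortical replicate 11 and 14 without the mouse labelled CD33 ASO replicate 3, and 8 with no mouse block. In these settings 2.73%, 2.77%, 2.57% and 1.28% of all probes were lower, against 2.35% in the main fit. The count for the regions of WT mice, 10, was 5 with each region normalized on its own, where 13% of all probes were higher and 47.7% lower. With each array left out in turn, the genotype counts were 21 to 26 in the cortex and 3 to 7 in the hippocampus (3 without APP/PS1 PBS replicate 6), the CON ASO counts 0 to 1 and 4 to 12 (12 without the same array), the counts of CD33 ASO against vehicle 0 to 0 and 0 to 5 (5 without the same array), and those against CON ASO 0 in both. The shares of all probes without APP/PS1 PBS replicate 6 are given with the results above. The correlations between regions passed for 18 genes with mice permuted within groups and for 0 within group and chip, a test with fewer mice free to move.

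With the replicate number as a block, the genotype counts were 23 and 5 and the hippocampal CON ASO count was 5, since Irf7 was lost (0.54, adjusted p = 0.0639); the other counts stayed at 0. The numbers do not pair mice, so this is no test of pairing. The 29 genes had a median SE of 0.191 in the cortex and 0.143 in the hippocampus, against 0.0861 and 0.0951 over all probes, for the genotype comparison, and genes near background (Oasl1, Trim25, Irf7, Oas2) limit what could be detected. Surgery, cannula and infusion are common to all groups and cannot be told apart from the baseline.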
